A study of Rattus norvegicus with 9 samples.

Results

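The genes described here make up the core of the NF-kB pathway: the DNA-binding subunits Rela, Rel, Relb, Nfkb1 and Nfkb2, the inhibitors Nfkbia and Nfkbib, the kinases Ikbkb and Chuk, and the feedback regulator Tnfaip3. They were chosen by gene name, and a probe counted as theirs when the scanner file gave that name, with case and the suffixes for predicted or mapped genes ignored, or a RefSeq transcript of the gene. Of the 10 genes, 8 had a probe by this rule, with 12 probes among the 41012 probes of the array other than controls. Relb and Tnfaip3 had none and were not analysed here, apart from a promoter sequence of Tnfaip3. All 12 probes passed the filter on dim probes, which 25808 probes passed in all, and their Cy5 signal was well above background on all 9 arrays and never saturated. The second probes of Nfkb2 and Rela had the weakest Cy5 signal of the 12, given below.

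RNA came from peripheral blood mononuclear cells (PBMC), the lymphocytes and monocytes left after a Ficoll gradient removes most red cells and granulocytes. The donors were 9 male Wistar rats, 6 months old and bled from the saphenous vein in the fed state. The 4 control animals (numbered 1, 4, 7 and 13) ate standard chow, and the 5 cafeteria animals (1, 4, 7, 10 and 13) were also offered fat-rich cafeteria foods, starting when they were 2 months old and lasting 4 months, a model of diet-induced obesity. On every array RNA of a single animal, labelled with Cy5, was hybridised beside a pooled reference labelled with Cy3, with no dye swap, and a value below is the log2 ratio of Cy5 over Cy3 unless another scale is named.

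In resting leukocytes, dimers of the NF-kB subunits are held in the cytoplasm by inhibitor proteins of the IkB family, to which Nfkbia and Nfkbib belong. Signals from cytokine, antigen and pattern-recognition receptors activate the kinases encoded by Ikbkb and Chuk, which mark the inhibitors for degradation, and the freed dimers enter the nucleus and bind kappa-B sites in the promoters of inflammatory and survival genes. Nfkbia and Tnfaip3 are themselves targets and shut the pathway down again, and much of this control acts on proteins, which mRNA levels do not show.

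The upstream sequences are printed because the pathway feeds back on its own genes, and a kappa-B consensus can be read in them directly. RefSeq promoters on the GRCr8 build were available for 8 of the 10 genes (Chuk, Nfkb1, Nfkb2, Nfkbia, Nfkbib, Rel, Rela and Tnfaip3). The 250 bases before the transcript start were searched on both strands for the NF-kB kappa-B consensus of 10 bases. Of these 8, 4 held a match, against 3.54% of 33469 promoters of the same length, and matches may overlap. The sequences of those 4 follow, 5′ to 3′ on the gene's own strand, in lower case with the matches in capitals.
Nfkbia, chr6:78597073-78597322, minus strand: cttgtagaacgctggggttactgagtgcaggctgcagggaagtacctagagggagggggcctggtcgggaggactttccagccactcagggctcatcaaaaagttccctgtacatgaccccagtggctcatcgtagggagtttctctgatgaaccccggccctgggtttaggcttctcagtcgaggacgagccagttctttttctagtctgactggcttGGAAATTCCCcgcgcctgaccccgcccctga
Nfkb2, chr1:255108124-255108373, plus strand: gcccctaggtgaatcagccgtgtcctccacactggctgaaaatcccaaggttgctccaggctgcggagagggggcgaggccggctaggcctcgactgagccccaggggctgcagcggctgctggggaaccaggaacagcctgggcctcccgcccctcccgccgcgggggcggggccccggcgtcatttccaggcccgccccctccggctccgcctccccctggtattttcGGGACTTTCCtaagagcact
Rel, chr14:101921939-101922188, minus strand: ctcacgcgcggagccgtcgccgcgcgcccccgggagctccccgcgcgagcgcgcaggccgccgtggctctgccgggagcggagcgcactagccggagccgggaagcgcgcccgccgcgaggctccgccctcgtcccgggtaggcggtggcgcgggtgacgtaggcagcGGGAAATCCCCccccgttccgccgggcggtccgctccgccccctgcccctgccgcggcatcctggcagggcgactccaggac
Tnfaip3, chr1:15543980-15544229, minus strand: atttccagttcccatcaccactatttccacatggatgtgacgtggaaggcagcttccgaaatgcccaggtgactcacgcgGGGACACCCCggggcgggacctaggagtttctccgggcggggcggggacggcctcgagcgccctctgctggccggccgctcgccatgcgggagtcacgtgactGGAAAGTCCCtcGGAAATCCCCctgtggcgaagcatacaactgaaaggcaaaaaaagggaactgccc

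Counting the transcript start as the base after -1, the match of Nfkbia reads GGAAATTCCC from -31 to -22 and that of Nfkb2 reads GGGACTTTCC from -20 to -11. Rel held GGGAAATCCC from -82 to -73, which matched on both strands, and the overlapping GGAAATCCCC from -81 to -72. Tnfaip3 held 3 separate matches, and only 0.406% of all promoters held at least 2. No match lay in the window of Rela, Nfkb1, Nfkbib or Chuk. G and C made up 80.4%, 70%, 62% and 57.6% of the windows of Rel, Nfkb2, Tnfaip3 and Nfkbia, and 76.4% and 74.8% of those of Rela and Nfkb1, which held no match, against a median of 51.2% over all promoters. Among 33 promoters of a list of NF-kB target genes 10 held a match (30.3%), and among 41 of a list of NF-kB regulators 7 did (17.1%). These are matches of letters, and binding was not measured.

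A difference between the diets beyond the spread between animals was not detected for any member. In limma's test with Benjamini-Hochberg adjustment over all 25808 probes, 0 of the 12 member probes were called at an adjusted p of 0.05, and the called share of all probes was 0% as well. At an unadjusted p of 0.05 the count of member probes was again 0, against 5.61% of all probes (2.02% higher and 3.59% lower in cafeteria animals). The control and cafeteria values overlapped at all 12 member probes, whereas they did not overlap at 1.96% of all probes. With 1 probe per gene, the brightest, all 8 members had a higher mean in the cafeteria group, by 0.01 to 0.29 with a median of 0.11. Chuk turned lower when control 13, cafeteria 1 or cafeteria 13 was left out, and Nfkbia turned lower with the slide as a block. The second probes of Rela, which had a weak signal, and of Nfkbia were lower. Only slides 3 and 5 held both diets, so the slide block compares their animals alone. Over all 22115 genes or unnamed transcripts, 53.96% were higher, with a median difference of 0.01.

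**Figure D1:**
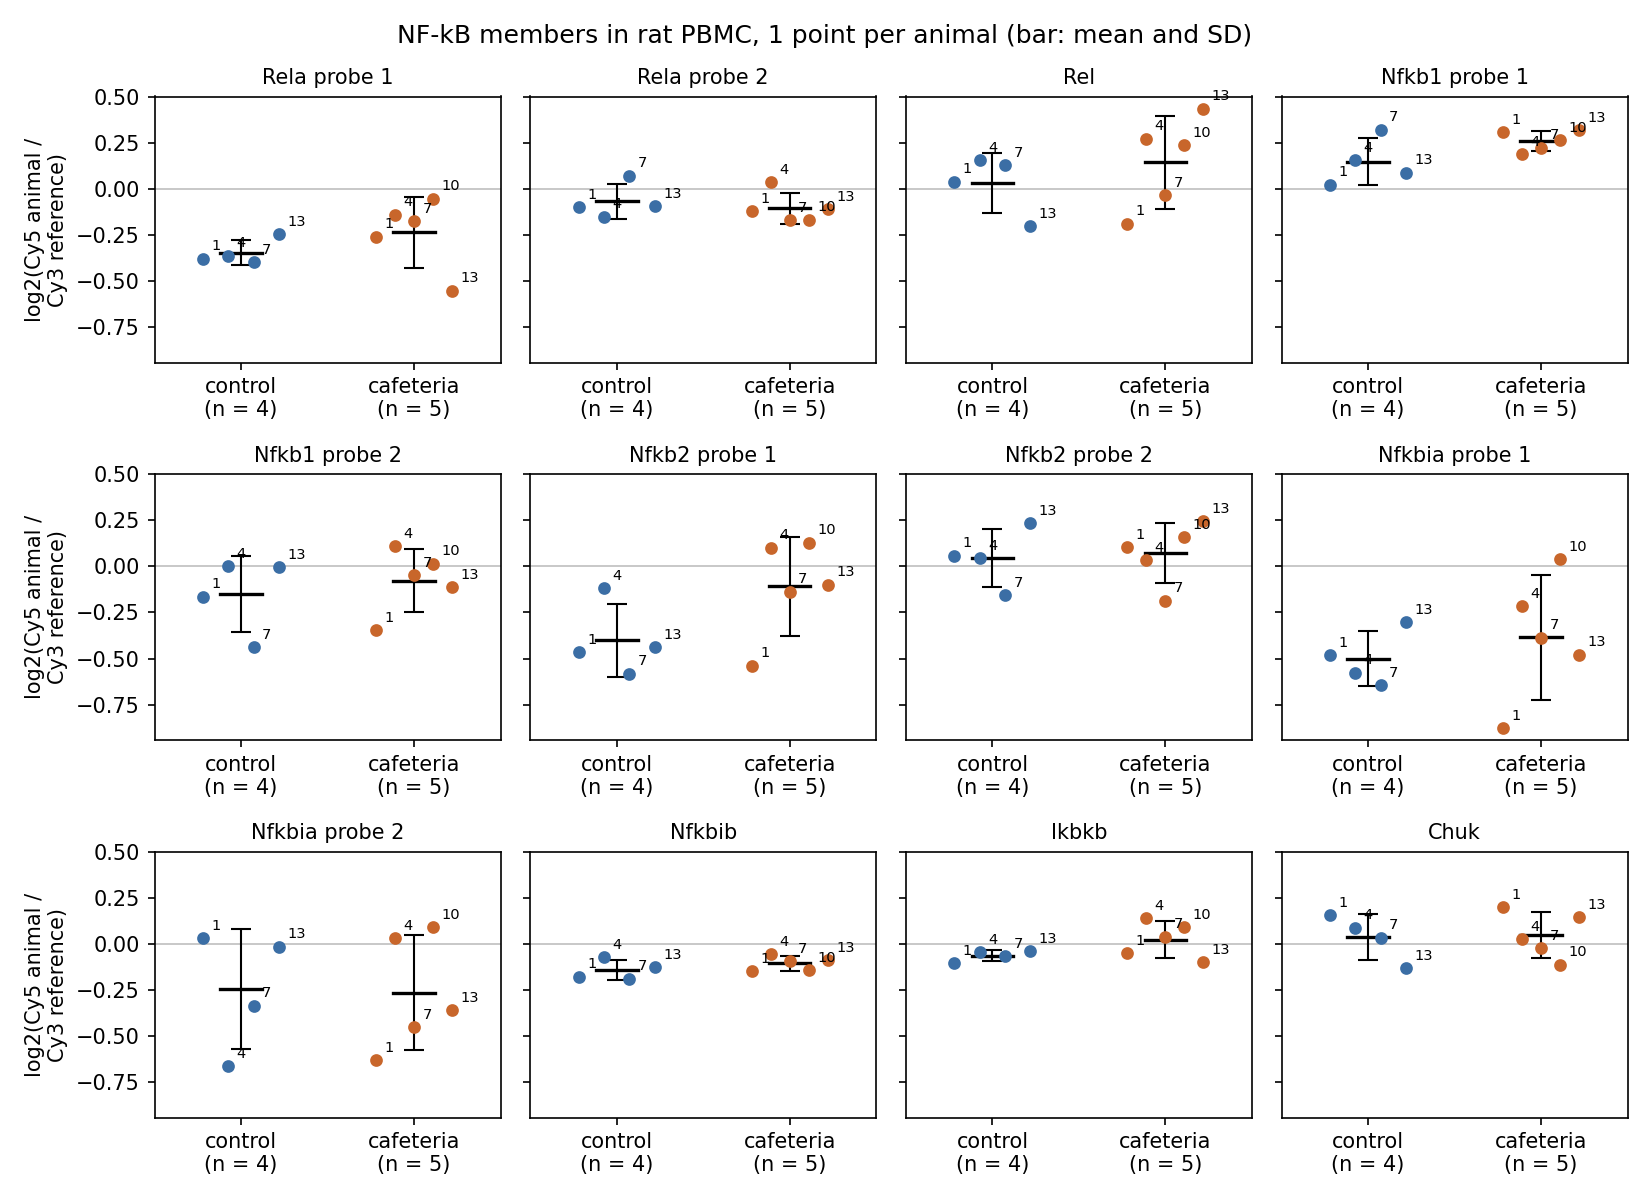
Log2 ratio of each animal's Cy5 signal to the Cy3 reference (vertical axis) at the 12 probes of 8 NF-kB members, with 4 control and 5 cafeteria animals labelled by replicate number and bars for the mean and SD. The 2 groups overlap in every panel, and the points of Nfkbib lie closest together while those of Nfkbia and of probe 1 of Nfkb2 spread widely.

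Among the subunits, Nfkb2, which encodes a precursor processed in the non-canonical branch of the pathway, stood furthest apart between the diets. Its brighter probe (chr1:251526647-251526839 on rn4) read -0.46, -0.12, -0.58 and -0.44 in controls 1, 4, 7 and 13. The cafeteria animals 1, 4, 7, 10 and 13 read -0.54, 0.10, -0.14, 0.13 and -0.10. Control 4 lay among the higher cafeteria values and cafeteria 1 among the low controls, so the groups overlapped through these animals. The means were -0.40 ± 0.20 (SD, n = 4) and -0.11 ± 0.27 (SD, n = 5). Their difference of 0.29 (SE 0.14; 95% interval -0.02 to 0.61) had an unadjusted p of 0.0672 and an adjusted p of 0.931 in limma. With single animals left out, the difference ran from 0.23 without control 7 (limma unadjusted p = 0.169) to 0.40 without cafeteria 1 (limma unadjusted p = 0.00574, adjusted p = 0.377). The difference was 0.16 as the mean over both Nfkb2 probes, the second of which had a weak signal. With the slide as a block it was 0.25, from the animals of slides 3 and 5 alone.

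The second Nfkb2 probe, upstream on the same chromosome at chr1:251522869-251523193, did not repeat this spacing, but its signal was weak. Its net Cy5, after background correction, ran from 112.6 to 179.6, against 1459.3 to 3529.4 at the brighter probe. Its Cy3 was well above background on only 8 arrays. Controls 1, 4, 7 and 13 read 0.06, 0.05, -0.15 and 0.23, and cafeteria animals 1, 4, 7, 10 and 13 read 0.10, 0.03, -0.19, 0.16 and 0.25. Control 7 and cafeteria 7 were the lowest of their groups, control 13 and cafeteria 13 the highest, and the difference was 0.03 (SE 0.10). The part of the weak signal in this small difference was not tested. The positions listed for these probes span 193 and 325 bases, and the files give no exon or transcript part for any probe.

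Rela encodes the subunit with the main transactivation domain of the canonical dimer. Its brighter probe (chr1:208272349-208272408) read -0.38, -0.36, -0.40 and -0.25 in controls 1, 4, 7 and 13, a narrow band. Cafeteria animals 1, 4, 7, 10 and 13 read -0.26, -0.14, -0.17, -0.05 and -0.55, so that cafeteria 4, 7 and 10 lay above every control and cafeteria 13 below every control. The difference was 0.11 (SE 0.10; 95% interval -0.11 to 0.33), and it was 0.07 without cafeteria 10 and 0.19 without cafeteria 13 (limma unadjusted p = 0.0274, adjusted p = 0.949). The second probe (chr1:208263526-208263582) gave -0.04 (SE 0.07), and there cafeteria 13 was inside the control range. That probe had a weak signal, with a net Cy5 of 181.1 to 244.9 against 2336.2 to 4208.3 at the brighter probe. The part of the weak signal in its difference was not tested.

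Rel, the subunit most tied to lymphocyte activation, varied more between animals (chr14:104645730-104645789). Controls 1, 4, 7 and 13 read 0.04, 0.16, 0.13 and -0.20, and cafeteria animals 1, 4, 7, 10 and 13 read -0.19, 0.27, -0.04, 0.23 and 0.43. Cafeteria 13 was the highest and control 13 the lowest of all 9, and cafeteria 1 was close to the latter. The means of 0.03 ± 0.16 (SD, n = 4) and 0.14 ± 0.25 (SD, n = 5) differed by 0.11 (SE 0.13; 95% interval -0.18 to 0.41). That difference was 0.04 without control 13 or cafeteria 13 and 0.20 without cafeteria 1.

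Nfkb1 encodes the precursor of the DNA-binding partner of Rela. It was the only member probe spotted 10 times on each array (chr2:233091120-233091179). Spots of an array share RNA, labelling and hybridisation, so their SD covers noise within an array only. It ran from 0.0169 to 0.0814 per array, and the SD between animals was 0.13 in controls and 0.06 in the cafeteria group. The former is the SD of single spots, whereas an animal's value is a mean of 10 spots, which varies less. These SDs are therefore not like measures. The spot means were 0.02, 0.16, 0.32 and 0.09 in controls 1, 4, 7 and 13 and 0.31, 0.19, 0.22, 0.26 and 0.32 in cafeteria animals 1, 4, 7, 10 and 13. All 5 cafeteria animals were above 3 of the 4 controls, and control 7 was the highest animal of all. The difference was 0.11 (SE 0.07, 95% interval -0.05 to 0.28, limma unadjusted p = 0.157, adjusted p = 0.973). It was 0.07 without control 1 (limma unadjusted p = 0.378) and 0.17 without control 7 (limma unadjusted p = 0.032, adjusted p = 0.790). In the latter fit 6.18% of all probes had an unadjusted p under 0.05. A probe spotted a single time nearby (chr2:233091704-233091763) placed the same control 7 lowest of all, at -0.44, and gave a difference of 0.07 (SE 0.12).

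The inhibitor Nfkbia, which binds dimers in the cytoplasm and is resynthesised when they become active, had the widest spread within groups of the members. Its brighter probe (chr6:75730438-75730497) read -0.48, -0.58, -0.64 and -0.30 in controls 1, 4, 7 and 13. Cafeteria animals 1, 4, 7, 10 and 13 read -0.88, -0.22, -0.39, 0.04 and -0.48, so the lowest and the highest animal were both cafeteria-fed. The difference was 0.12 (SE 0.16; 95% interval -0.24 to 0.47), and it was 0.01 without cafeteria 10 and 0.24 without cafeteria 1. The second probe (chr6:75730216-75730275) read 0.03, -0.66, -0.34 and -0.02 in the controls and -0.63, 0.03, -0.45, 0.09 and -0.36 in the cafeteria animals. Cafeteria 10 was again the highest and cafeteria 1 again among the lowest, but control 4 was now the lowest, and the difference was -0.02 (SE 0.18).

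Nfkbib, the second inhibitor (chr1:83866200-83866259), was the opposite in spread. Controls 1, 4, 7 and 13 read -0.18, -0.07, -0.19 and -0.13, and cafeteria animals 1, 4, 7, 10 and 13 read -0.15, -0.06, -0.09, -0.14 and -0.09. All 9 animals lay within a narrow band, and the difference of 0.03 (SE 0.06) had a 95% interval of -0.09 to 0.16, the narrowest of the members.

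Of the kinases, Ikbkb acts mainly in the canonical branch and Chuk mainly in the non-canonical branch. Ikbkb (chr16:73858022-73858081) read -0.10, -0.05, -0.07 and -0.04 in controls 1, 4, 7 and 13, and -0.05, 0.14, 0.04, 0.09 and -0.10 in cafeteria animals 1, 4, 7, 10 and 13. Cafeteria 4, 7 and 10 lay above all controls and the other 2 among them, with a difference of 0.09 (SE 0.07; 95% interval -0.06 to 0.24). Chuk (chr1:249147516-249147575) read 0.16, 0.09, 0.03 and -0.13 in the controls and 0.20, 0.03, -0.02, -0.11 and 0.15 in the cafeteria animals. Its groups covered almost the same range, and the difference was 0.01 (SE 0.09).

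**Figure D2:**
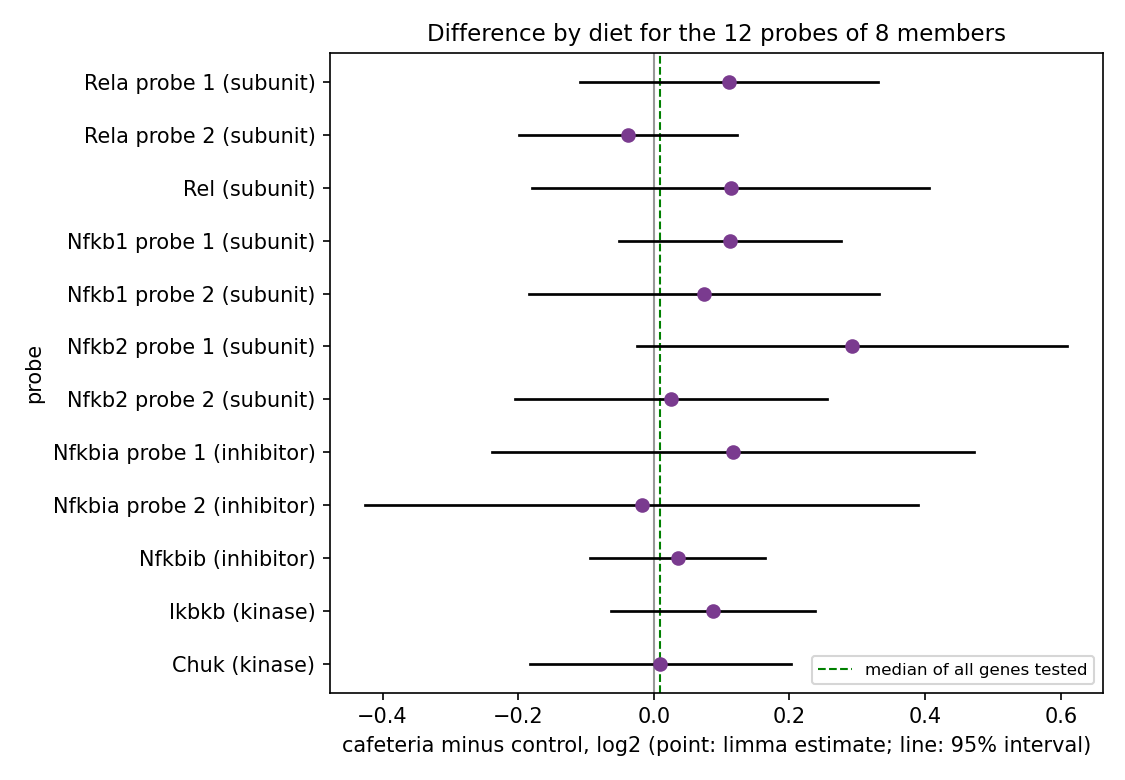
Cafeteria minus control difference in log2 ratio (horizontal axis) for the 12 probes, with limma's estimate as a point and its 95% interval as a line; the dashed line is the median of all genes tested, 0.01. Every interval includes 0, and probe 1 of Nfkb2 comes nearest to leaving it out, at -0.02 to 0.61.

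The spread within groups differed widely between the member probes, also between probes of the same gene. Ranked among all tested probes by the SD within groups, the Nfkbia probes stood at percentiles 86.4 and 90.5, the brighter Nfkb2 probe at 81.5 and Rel at 77.2. Nfkbib stood at percentile 0.60, Ikbkb at 8.17, the brighter Nfkb1 probe at 17.1 and Chuk at 37.5. The second probes of Nfkb1 and Nfkb2 stood at 68.5 and 58.3, and the brighter and second Rela probes at 53.6 and 15.2. The part of the weak signal in the spread of the second Nfkb2 and Rela probes was not tested. The brighter Nfkb1 probe is a mean of 10 spots, so its rank is not like that of the probes spotted a single time. By the brighter probes, Nfkbia, Nfkb2 and Rel were thus the most variable members. They were also the 3 measured members with a kappa-B match in the window printed above, while Ikbkb had no promoter to search. This is a description noticed in the data and not tested. The Cy3 channel holds the same pooled RNA on every array, so its spread shows what hybridisation and scanning add in that channel. The Cy5 spread also holds the separate RNA and labelling of each animal, so its excess over Cy3 is not a difference between animals alone. On quantile-normalized log2 signals, the SD over 9 arrays of Nfkbia's brighter probe was 0.242 in Cy5 and 0.0409 in Cy3, and that of Rel was 0.254 and 0.0358. For Nfkbib the values were 0.0559 and 0.0493, so its Cy5 signal varied hardly more than that of the shared reference. The second Nfkb1 probe was noisy in the reference too, with 0.156 in Cy5 and 0.138 in Cy3.

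**Figure D3:**
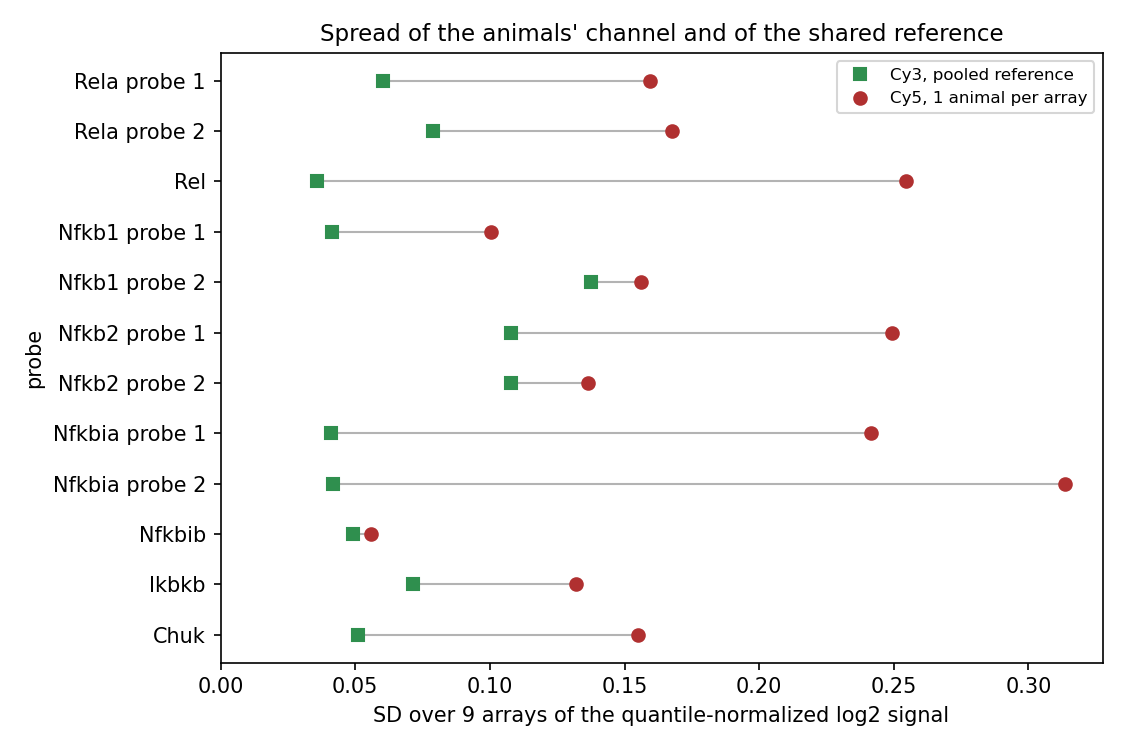
SD over 9 arrays of the quantile-normalized log2 signal (horizontal axis) at each probe, for the Cy3 reference shared by all arrays (squares) and the Cy5 channel with 1 animal per array (circles). Cy5 spread more than Cy3 at every probe, widely for Rel and Nfkbia and hardly for Nfkbib.

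Individual animals were high or low in several members. With each member's mean over 9 animals as the zero line, cafeteria 4, 7 and 10 were above it in 6 of the 8 members, and cafeteria 10 was the highest of all animals in 3. Control 1 was below it in 7 of 8, and controls 7 and 13 in 6 of 8. Control 4 was above it in 4 of 8 and cafeteria 13 in 5 of 8. The same counts over all genes are not given here, so these are not read as particular to the members. Cafeteria 1 was below it in 5 of 8, reaching -0.44 for Nfkbia, while cafeteria 10 reached 0.47 for that gene. The arrays lay on 7 slides, and slides 3 and 5 each held 1 animal of both groups. On slide 3 (control 1 and cafeteria 1) the cafeteria animal minus the control was -0.39 for Nfkbia, -0.07 for Nfkb2, -0.23 for Rel, 0.28 for Nfkb1 and 0.12 for Rela. On slide 5 (control 13 and cafeteria 10) it was 0.34 for Nfkbia, 0.57 for Nfkb2, 0.44 for Rel, 0.17 for Nfkb1 and 0.19 for Rela. Nfkbia, Nfkb2 and Rel thus pointed in opposite directions within these slides, and Nfkb1 and Rela in the same direction.

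**Figure D4:**
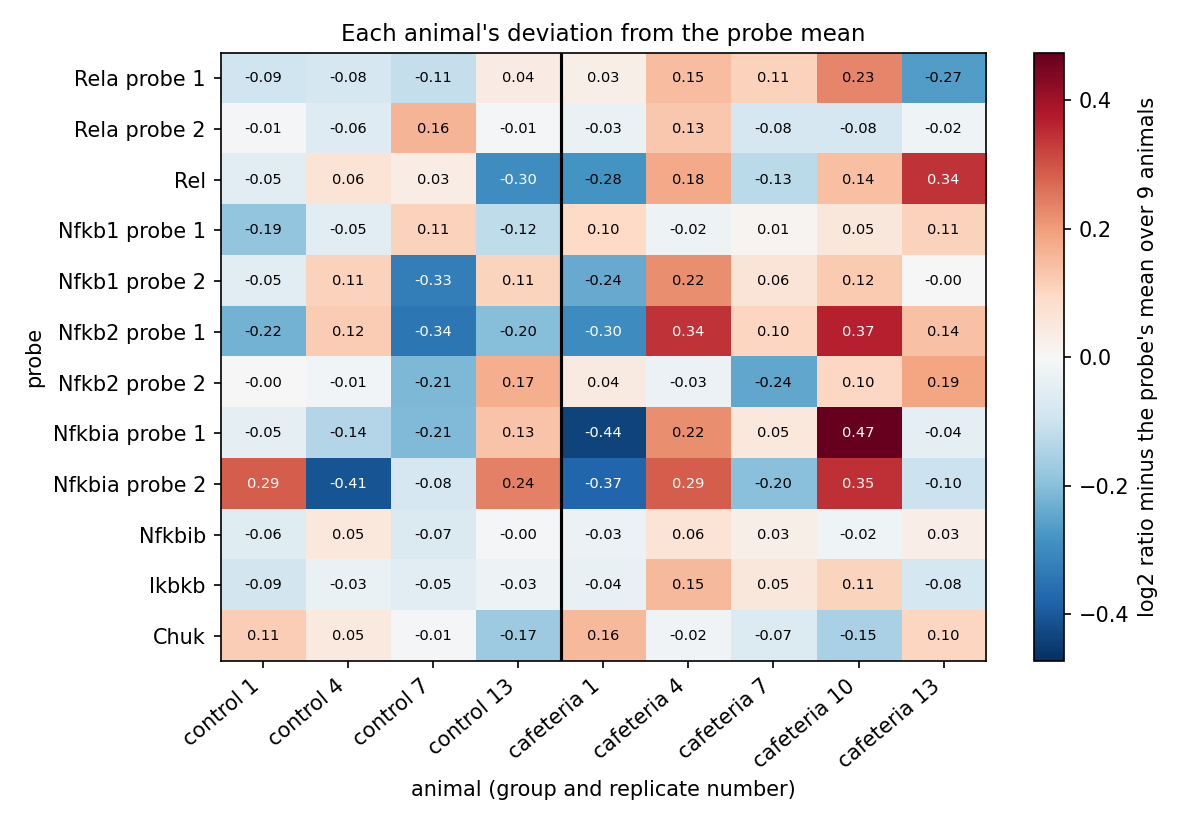
Each animal's log2 ratio minus the mean of that probe over 9 animals (colour and printed value), with probes in rows and animals in columns, controls left of the line. Cafeteria 10 is strongly above the mean at both Nfkbia probes and at probe 1 of Nfkb2, and cafeteria 1 is below it at the same probes.

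Only the mean-centred profile over the 9 arrays was used to find the genes most like Nfkbia among 10405 genes with a symbol. The closest were Sdad1, with a root mean square distance of 0.0774 on the log2 scale, Tspyl1 with 0.0781 and Cdv3l1 with 0.108, against a median distance of 0.280 over all genes searched. Each had a diet difference within its error, the largest being that of Cdv3l1 at 0.09 (SE 0.14).

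A list of 44 NF-kB regulators covered genes upstream of and around the members. It held receptor adaptors, kinases, ubiquitin ligases and deubiquitinases, and also further IkB proteins such as Nfkbie and Nfkbiz. Of the 44 genes, 32 were tested. Of these, 20 were higher and 12 lower in the cafeteria group, with a median of 0.04, and in limma 0 had an adjusted or an unadjusted p under 0.05, against 5.21% of all genes at the unadjusted threshold. The largest differences upwards were those of Fbxw11, a ubiquitin ligase subunit that recognises phosphorylated inhibitors, at 0.26 (SE 0.17), and Rbck1, part of the linear ubiquitin ligase complex, at 0.19 (SE 0.11). Fbxw11 was 0.09 without control 1 and 0.43 without control 7, and a second probe of it gave -0.04. The largest downwards were Tax1bp1, an adaptor of the Tnfaip3 protein, at -0.32 (SE 0.33), and Ripk1, the receptor-associated kinase, at -0.26 (SE 0.12). Ripk1 read 0.35, 0.09, -0.16 and 0.20 in controls 1, 4, 7 and 13 and 0.00, 0.03, -0.20, -0.13 and -0.39 in cafeteria animals 1, 4, 7, 10 and 13, with a limma unadjusted p of 0.0534 and an adjusted p of 0.902. Tax1bp1 rested on control 4, which read 1.41, and was 0.03 without it. The count at an unadjusted p under 0.05 depended on the animals: it was 5 without control 7 (6.18% of all probes in that fit), 3 without cafeteria 4 (5.56%), 2 without cafeteria 1 (7.63%), and 1 without control 4, control 13, cafeteria 7 or cafeteria 13 (4.45% to 5.92%).

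Downstream, 34 of 42 listed NF-kB target genes were tested, of which 19 were higher and 15 lower, with a median of 0.02. In limma 0 passed the adjusted threshold and 1, Ccl2, had an unadjusted p under 0.05 (5.21% of all genes). Ccl2 encodes a chemokine that attracts monocytes, and it was lower in the cafeteria group by the point estimate. Controls 1, 4, 7 and 13 read -0.25, 0.43, 0.06 and -0.16, and cafeteria animals 1, 4, 7, 10 and 13 read -1.59, -0.24, -1.26, -0.50 and -1.06. Only control 1 and cafeteria 4 overlapped, by less than 0.01. The difference was -0.95 (SE 0.26, limma unadjusted p = 0.00434, adjusted p = 0.599), and it ran from -1.12 to -0.79 when single animals were left out. Without cafeteria 1 the count of target genes at an unadjusted p under 0.05 was 3, in a fit where 7.63% of all probes passed, and it was 2 without control 4, control 13, cafeteria 4 or cafeteria 10 (4.62% to 5.92% of all probes).

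Of the other targets, the largest differences upwards were those of the chemokine Ccl5 at 0.28 (SE 0.22) and the costimulatory receptor Cd40 at 0.25 (SE 0.25). Ccl5 was 0.11 without cafeteria 7 and -0.03 with the slide as a block, and Cd40 was 0.12 without cafeteria 13 and 0.42 without control 4. The neutrophil chemokine Cxcl2 differed by -0.67 (SE 0.91), and animals of both groups ranged widely, from -2.45 to -0.085 in controls and from -4.06 to 0.99 in cafeteria animals. That difference was -0.05 without cafeteria 1 and -1.32 without cafeteria 10.

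**Figure D5:**
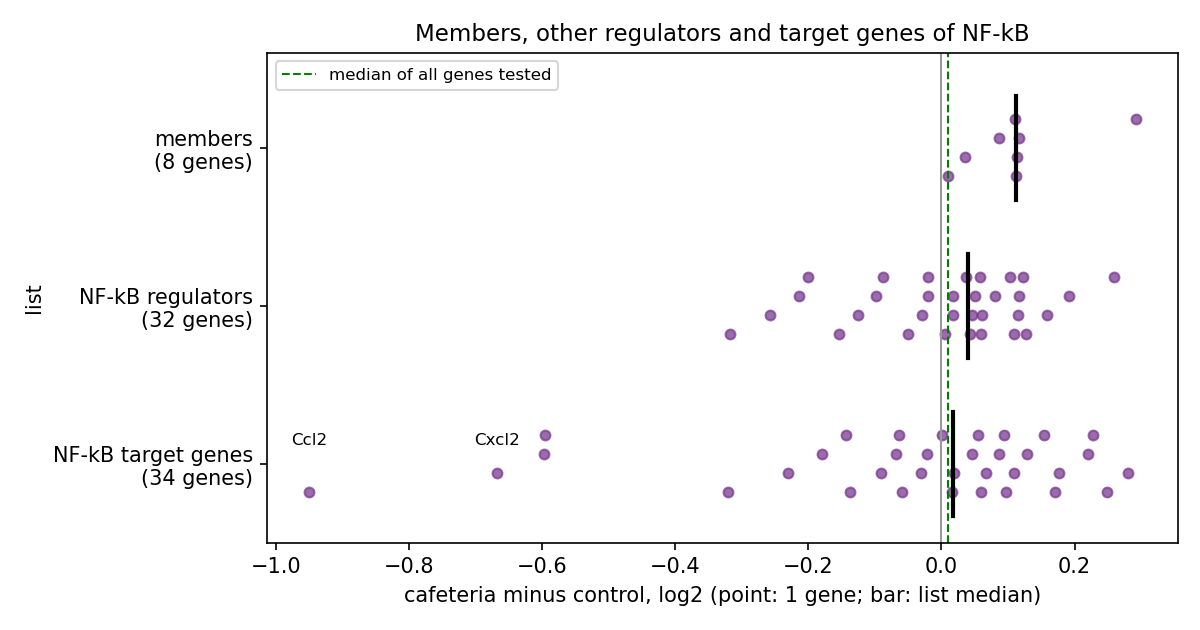
Cafeteria minus control difference in log2 ratio (horizontal axis), 1 point per gene, for the 8 members, 32 regulators and 34 target genes, with a bar at each list's median (0.11, 0.04 and 0.02) and a dashed line at the median of all genes tested. The members lie to the right of 0 and, apart from Nfkb2, within the range of the other lists, and Ccl2 and Cxcl2 lie furthest to the left.

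Marker genes of the blood cell types were read beside these values. Defining markers of T cells (Cd3d, Cd3e), B cells (Cd79b, Ms4a1) and monocytes (Cd14, Csf1r) were well above background on all 9 arrays, and so were those of red cells (Hbb) and platelets (Pf4). S100a8 and S100a9, abundant in neutrophils and also expressed by monocytes, were above background on all 9 arrays, the granule gene Ltf on 3 and the granule gene Mpo on 0. The means of the 9 B cell markers ran from -0.26 to 0.29 in controls and -0.23 to 0.43 in cafeteria animals, and all 9 were higher in the cafeteria group. The same held for all 9 markers of cytotoxic lymphocytes (-0.41 to -0.10 and -0.20 to 0.61). All 17 T cell markers were lower (-0.23 to 0.11 and -0.51 to 0.04), and 8 of 11 monocyte markers were lower (-0.31 to 0.31 and -0.50 to 0.34). Over all genes 53.96% were higher. Markers of a list come from the same 9 animals, so these counts are not separate observations. Unadjusted p in limma was under 0.05 for 0 of 9 B cell, 3 of 9 cytotoxic, 2 of 17 T cell and 1 of 11 monocyte markers. The share of all genes was 5.21%, and 0 of these markers had an adjusted p under 0.05. All 8 platelet markers were lower, with list means of -0.36 to 0.22 in 3 controls, 1.33 in control 4 and -0.83 to 0.37 in cafeteria animals; the difference of the list mean was -0.48, and -0.12 without control 4. Of the platelet markers 0 of 8 had an unadjusted p under 0.05 in limma. Of the red cell markers 9 of 10 were higher, by up to 1.09, and 1 was lower, at -0.75. Their list means of -0.71 to -0.57 in controls and -0.51 to -0.06 in cafeteria animals did not overlap. Single red cell markers did not overlap in 5 of 10 cases, against 1.96% of all probes. In limma 8 of 10 had an unadjusted p under 0.05, against 5.21% of all genes, and 0 an adjusted one. The part of cell composition in the members' values was not tested. In such a mixture fewer cells of a type and less RNA per cell cannot be told apart.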

How the data were processed

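The scanner files deposited by the authors give mean spot intensity and median local background of both dyes on rat whole-genome arrays, unnormalized, and, per the file headers, a log10 ratio after the software's dye normalization, with positions on rn4. A table of log2 values deposited by the authors is filled for 21466 of 45220 spots, followed the Cy5 intensity (rank correlation 0.993 to 0.999) and had array medians of 9.40 to 9.69; its centring and its use of the reference are unknown.

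Background was corrected by normexp (offset 50) and ratios normalized by loess within arrays, in limma 3.58.1 (statmod 1.5.0, R 4.3.3, package data.table version 1.17.8; figures with Python 3.11.15 and matplotlib 3.10.9). For 41 local backgrounds above 10 times the array's median, that median was used instead, a choice made after the values were seen; probes called in all went from 2 to 0. Non-uniform and outlier spots were left out, repeated spots averaged, and probes kept with Cy5 well above background on at least 4 arrays. On all arrays 58.8% to 66.7% of 43379 spots passed that mark; the number of arrays limits the precision.

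Names were updated through RefSeq for 19441 probes (47.4%). Diets were compared by a moderated limma test (7 residual, 3.27 prior degrees of freedom), tested on simulated data, with Benjamini-Hochberg adjustment over 25808 probes. A gene is given by its probe of highest signal. Members and lists were chosen with earlier results of these data known. Named were all members, the listed genes with an unadjusted p under 0.05 or else the 2 largest differences per direction, and the 3 genes closest to Nfkbia. Alternatives covered background, normalization, filter, slide, replicate block, array weights and single animals.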

Additional observations from a re-analysis of the deposited data

Results flagged for a closer look

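Among 24 groups of member values (12 probes in 2 groups), 1 held an animal far from the others by Dixon's criterion, which chance alone meets in about 1 of 20 groups. It was the second Rela probe in cafeteria 4, at 0.0378, where the nearest of the other cafeteria animals read -0.11 and the gap took up 0.723 of the group's range. At the brighter Rela probe cafeteria 4 read -0.14, within the group.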

How the results depend on the processing

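The 8 member genes stayed without a call at an adjusted p of 0.05 under every alternative run, the lowest adjusted p being 0.275. Directions turned for Chuk (-0.0461 without control 13, -0.0279 without cafeteria 1, -0.0149 without cafeteria 13; up to 0.0499 without other animals), Nfkbia (-0.0270 with the slide as a block), Ccl5 (-0.0324 with the slide as a block) and Tax1bp1 (0.0263 without control 4, down to -0.5128 without other animals). With the slide as a block, the differences rest on the animals of slides 3 and 5 alone. The cause of the turns was not tested. Calls over all probes were 2 with the background as scanned and 0 to 2 with single animals left out, 2 without control 1 or control 13. The median of all probes was 0.0091 as reported, 0.138 after median centring and 0.127 in the authors' table, and beside it the member median was 0.379 and 0.272 in the latter settings. Leaving out single animals gave 0.0679 to 0.111.

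Counts at an unadjusted p under 0.05 in limma stand here beside the share of all probes in the same fit. With median centring (17.7% of all probes) they were 7 of 12 member probes, 11 of 32 regulators and 9 of 34 target genes. With the authors' values (12.8%) they were 3 of 11, 3 of 32 and 4 of 29, and with those values centred (6.35%) 1, 1 and 2. The log ratio of the scanner software (6.1%) gave 2 member probes, and array weights (6.28%) gave 1 member probe and 2 regulators. Cy5 alone (5.67%) gave 3 regulators and 3 target genes, and the slide as a block (3.19%) 2 and 2. Regulators numbered 2 with no filter (4.81%) or a trended and robust prior (5.51%) and 1 with no background correction (5.81%), and target genes 2 with the replicate block (5.26%). With single animals left out (4.45% to 7.63%), the counts were 0 to 1 member probes (1 without control 4, control 7, cafeteria 1 or cafeteria 13), 0 to 5 regulators and 1 to 3 target genes. The list counts, the background as scanned and the platelet list without single animals were added after seeing the data.

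Deviations of same-numbered animals of the 2 groups correlated at -0.05, 0.04, 0.13 and -0.18 for numbers 1, 4, 7 and 13. The labels do not say whether a shared number marks a pair, and these correlations cannot settle it. With the replicate block, calls over all probes were 0, member probes at an unadjusted p under 0.05 were 0 and the member median was 0.0679. No control shares the number of cafeteria 10, so the block takes that animal out of the difference. The member median without cafeteria 10 was the same, 0.0679. The 95% intervals of the members reach differences of up to 0.61 (Nfkb2), and with 9 arrays these data do not tell the values within each interval apart.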
